A study of Mus musculus with 2 samples.

Results

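Fos, Fosb, Jun, Junb, Jund, Ier2, Dusp1, Zfp36, Nfkbia and Atf3 are immediate early genes, and the same 10 genes are commonly read as marks of stress when tissue is dissociated into single cells. They were taken by name, and all 10 were present in both count tables, out of 27933 gene symbols. The samples were mouse thymocytes: 1 library from a mutant, homozygous for changed GATA sites 1 and 2 of NMe, a distal enhancer of Myc that responds to Notch, and 1 library from a wild type. Each was a 10x Chromium 3′ v2 library of thymus cell suspension, with 5000 cells loaded. The labels state neither age, sex, strain nor the number of animals behind a library. With 1 library per genotype there is no replicate, so every difference between them compares these 2 libraries and carries no test; the intervals given are exact 95% intervals and cover counting error only.

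Immediate early genes are transcribed within minutes of a signal without new protein synthesis. In thymocytes the T cell receptor switches them on through calcium, MAP kinase and NF-kB pathways when a double positive cell is selected. Warming, enzymes and handling switch on much the same genes in cells of any kind. Fos, Fosb, Jun, Junb and Jund encode subunits of the AP-1 transcription factor, and Atf3 encodes a stress-induced partner of it. Ier2 encodes a nuclear protein of the immediate early response. The remaining 3 genes encode feedback inhibitors: Dusp1 is a phosphatase that switches off MAP kinases, Zfp36 (tristetraprolin) speeds the decay of AU-rich mRNAs, and Nfkbia is the inhibitor IkBα, which retains NF-kB in the cytoplasm.

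The promoters of 4 of the genes are printed here to set stage patterns beside sequence: Dusp1 and Junb were high in post-selection-like cells, Jun was high in early-like cells, and Nfkbia answers to NF-kB. The letters are the RefSeq sequence of GRCm38.p6, minus strand, read 5′ to 3′: Dusp1 at chr17:26508520-26508722, Junb at chr8:84978749-84978998, Nfkbia at chr12:55492648-55492897 and Jun at chr4:95052223-95052472. The Junb, Nfkbia and Jun windows run up to the base before the RefSeq start, and the Dusp1 window stops 48 bases before it. Capitals mark the letters of a searched motif: TGACG, the core of the cAMP response element, in Junb and at the left in Dusp1; the full element TGACGTCA in Dusp1; TGACATCA, a variant of the AP-1 site known from the human JUN promoter, in Jun; and an NF-kB site, read on the opposite strand, in Nfkbia.
Dusp1: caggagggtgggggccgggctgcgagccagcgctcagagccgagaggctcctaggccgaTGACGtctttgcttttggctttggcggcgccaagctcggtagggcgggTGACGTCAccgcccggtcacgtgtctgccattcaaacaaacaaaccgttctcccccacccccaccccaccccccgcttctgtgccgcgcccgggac
Junb: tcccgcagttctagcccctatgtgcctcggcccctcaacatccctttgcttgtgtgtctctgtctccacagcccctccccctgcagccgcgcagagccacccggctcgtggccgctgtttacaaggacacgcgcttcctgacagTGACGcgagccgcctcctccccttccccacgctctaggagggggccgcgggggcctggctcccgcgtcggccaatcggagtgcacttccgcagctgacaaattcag
Nfkbia: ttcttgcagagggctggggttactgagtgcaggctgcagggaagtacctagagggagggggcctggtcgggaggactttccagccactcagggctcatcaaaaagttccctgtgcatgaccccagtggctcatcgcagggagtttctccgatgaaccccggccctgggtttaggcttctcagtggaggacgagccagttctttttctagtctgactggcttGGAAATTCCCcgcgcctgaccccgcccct
Jun: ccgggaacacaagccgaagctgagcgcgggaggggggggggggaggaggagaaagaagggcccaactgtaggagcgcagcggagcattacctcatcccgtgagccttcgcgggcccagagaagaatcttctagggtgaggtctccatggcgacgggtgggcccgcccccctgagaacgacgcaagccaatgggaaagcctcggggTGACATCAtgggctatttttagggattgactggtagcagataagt

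Motifs were searched on both strands in the 250 bases before the start, which the RefSeq table held for 9 of the 10 genes, with Ier2 named only. The core TGACG, counted also where it lies inside a full site, was found in 5 of the 9 windows (Atf3, Dusp1, Fos, Fosb and Junb), and in 17.8% of 32851 mouse promoter windows of that length. The full TGACGTCA was found in 1 of 9 (Dusp1, 143 to 136 bases before the start) against 1.55% of all windows. An NF-kB site, searched by its name, was found in 3 of 9 (Fos, Fosb and Nfkbia, the last at 29 to 20 bases before the start) against 3.9%. TGACATCA was found in 1 of 9 (Jun, 45 to 38 bases before the start) against 2.93%, and a serum response element in 1 of 9 (Zfp36) against 1.47%. TATAAA was found in 1 of 9 (Fos) against 12.4%, and the AP-1 site TGANTCA in 0 of 9 against 6.75%. These are matches of letters, and no binding was measured.

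The 10 genes lie on 6 chromosomes of GRCm38 in the GENCODE annotation. Fos (chr12:85473890-85477273, plus strand) and Nfkbia (chr12:55489410-55492647, minus strand) share chromosome 12. Fosb (chr7:19302696-19310051) and Zfp36 (chr7:28376784-28380253) are both on the minus strand of chromosome 7. Junb (chr8:84974484-84978718, minus strand), Ier2 (chr8:84661331-84662852, minus strand) and Jund (chr8:70698949-70700616, plus strand) are on chromosome 8. Jun (chr4:95049034-95052222), Dusp1 (chr17:26505590-26562128) and Atf3 (chr1:191170296-191218039) are on the minus strand of chromosomes 4, 17 and 1. The RefSeq starts behind the motif windows differ from these loci for some genes. The Jund window (chr8:70697489-70697738) does not adjoin the Jund locus given here. The windows of Fosb, Dusp1, Zfp36 and Atf3 overlap exons of the same gene in this annotation.

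After filtering, 1727 mutant and 1337 wild type cells remained, with a median of 2595 UMIs per cell in the mutant and 3320 in the wild type, and 1 cell barcode was shared. Cells were placed in stages by UMIs of marker genes, none of them one of the 10: early-like (Il2ra, Myl10, Hes1, Dtx1, Kit), cycling (S and G2M genes), DP-like (Rag1, Rag2, Arpp21 and Cd8b1 among them), post-selection-like (Itm2a, Cd5, Tox, which rise after receptor signalling) and SP-like (Ccr7, S1pr1, Ms4a4b, Ms4a6b and Il7r among them). The mutant held 160 early-like, 326 cycling, 467 DP-like, 212 post-selection-like and 377 SP-like cells, and the wild type 35, 596, 281, 153 and 184. Innate-like cells numbered 25 and 14, cells with B cell or myeloid markers 68 and 19, and cells without a stage 92 and 55. The summed post-selection markers stood at 2984 CPM (UMIs per 1000000 UMIs of the stage) in mutant and 2642 CPM in wild type post-selection-like cells, and at 229 and 132 CPM in the DP-like cells of the same libraries. Of the post-selection-like cells, 44 in the mutant and 25 in the wild type would leave the stage if each gate asked 1 more UMI. Clustering set most DP-like cells and part of the cycling cells apart by library. Of the cells in DP-like clusters, 427 of 449 mutant and 21 of 251 wild type cells lay in cluster 0, and 22 and 230 in cluster 13. Cycling cluster 4 held 95 mutant and 3 wild type cells, and cluster 16 held 12 and 156. Values of DP-like cells are therefore set between largely different clusters, and those of cycling cells between partly different ones.

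Jund and Nfkbia supplied most of the UMIs of the 10 genes: 72.2% in mutant and 79.7% in wild type cells, from 49.8% and 59.4% in early-like cells up to 86.5% and 86.4% in DP-like cells. A sum of all 10 is thus mainly a reading of those 2, and the sum of the other 8 is given beside it. Over all cells the largest parts of that second sum were Junb and Ier2. They supplied 11.0% and 6.83% of the UMIs of the 10 genes in the mutant, and 6.72% and 4.67% in the wild type. The sum of the 8 thus leans on Junb and Ier2 and does not stand for each of the 8. The 3′ UMI counts were not divided by transcript length.

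The sum of the 8 genes was higher in post-selection-like, SP-like and early-like cells than in DP-like and cycling cells of both libraries, though not every gene followed it. It was 519 CPM in mutant and 276 CPM in wild type early-like cells, 118 and 95.4 CPM in cycling cells, and 177 and 183 CPM in DP-like cells. It was 529 CPM in mutant and 340 CPM in wild type post-selection-like cells, and 389 and 339 CPM in SP-like cells. Cycling cells carried about 3 times the RNA of DP-like cells (median of 6090 against 1818 UMIs in the mutant), so the order of the lowest stages depends on the scale. Counted per cell, the 8 genes gave 0.819 UMIs per mutant cycling cell against 0.355 per mutant DP-like cell, and 0.696 against 0.438 in the wild type.

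**Figure D1:**
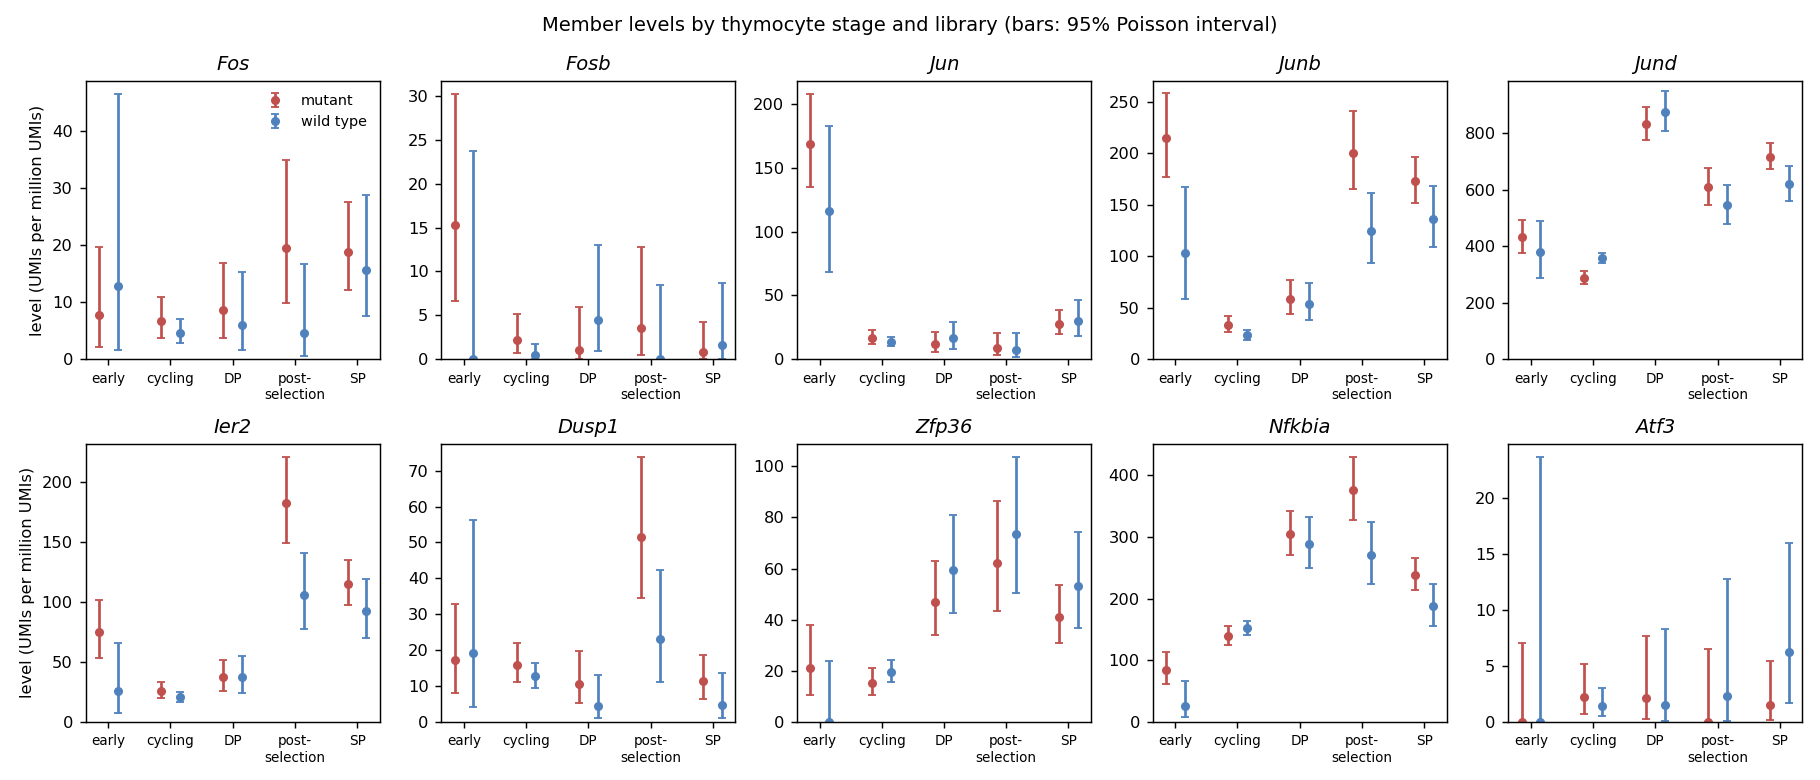
Level of each of the 10 genes in CPM (linear axis from 0, a scale of its own for each gene) by stage, mutant left of wild type, with exact 95% Poisson intervals of the summed UMIs from 1 library per genotype. Ier2 is highest in post-selection-like cells of both libraries, Jun in early-like cells, and Jund in DP-like cells. In the wild type the Ier2 interval of post-selection-like cells overlaps that of SP-like cells.

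Among the AP-1 subunits, Jun and Junb had different stage patterns. Jun stood at 169 CPM (135 to 208) in mutant and 116 CPM (68.6 to 183) in wild type early-like cells. In the other stages it was lower: 16.8 and 13.1 CPM in cycling, 11.7 and 16.3 CPM in DP-like, 8.87 and 6.89 CPM in post-selection-like, and 27.7 and 29.7 CPM in SP-like cells of the mutant and the wild type. Early-like over DP-like cells, the log2 ratio of Jun was 3.85 (2.94 to 4.90) in the mutant and 2.82 (1.66 to 4.05) in the wild type. Jun was thus a gene of the early-like stage in both libraries, and its post-selection-like values rest on 5 and 3 UMIs.

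Junb was high in 3 stages. It stood at 215 CPM in mutant and 103 CPM in wild type early-like cells, at 200.5 (165 to 241) and 124 CPM (93.1 to 162) in post-selection-like cells, and at 173 and 136 CPM in SP-like cells. DP-like cells had 58.6 and 53.5 CPM and cycling cells 33.1 and 23.2 CPM. Post-selection-like over DP-like cells, its log2 ratio was 1.77 (1.30 to 2.27) in the mutant and 1.21 (0.58 to 1.86) in the wild type, and SP-like over DP-like cells 1.56 (1.13 to 2.01) and 1.35 (0.77 to 1.95).

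Jund ran the other way, being highest in DP-like cells at 832 CPM (774 to 892) in the mutant and 877 CPM (807 to 950) in the wild type. Post-selection-like cells had 609 and 544 CPM, SP-like cells 717 and 621 CPM, early-like cells 431 and 379 CPM and cycling cells 288 and 358 CPM. Jund is known as the AP-1 subunit that resting cells express without a stimulus. Its log2 ratio of post-selection-like over DP-like cells was -0.45 (-0.64 to -0.27) in the mutant and -0.69 (-0.91 to -0.47) in the wild type. SP-like over DP-like cells it was -0.21 in the mutant, but 0.25 when totals were scaled by the median of ratios and 0.13 without mitochondrial and ribosomal UMIs.

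Fos, Fosb and Atf3 were sparse. Fos gave 73 UMIs in the mutant (11.6 CPM) and 46 in the wild type (6.98 CPM). Among the 5 stages it was highest in mutant post-selection-like (19.5 CPM, 9.74 to 34.9) and SP-like cells (18.7 and 15.6 CPM in mutant and wild type). Wild type post-selection-like cells were the lowest stage of their library, at 4.59 CPM, so the libraries shared no top stage. Outside the 5 stages, Fos reached 20 CPM in innate-like cells and in cells with B cell or myeloid markers. Fosb gave 26 and 8 UMIs, of which 8 mutant UMIs and 0 wild type UMIs lay in early-like cells. Early-like over DP-like cells, Fosb in the mutant had a log2 ratio of 3.85 (0.95 to 9.32), from 8 UMIs and 1 UMI. Atf3 gave 10 mutant and 14 wild type UMIs over all cells, too few to read a stage pattern.

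Ier2 had its highest level in post-selection-like cells of both libraries, at 183 CPM (149 to 222) in the mutant and 106 CPM (77.3 to 141) in the wild type. SP-like cells had 115 and 92.3 CPM, early-like cells 74.7 and 25.7 CPM (39 and 4 UMIs), DP-like cells 37.3 and 37.1 CPM and cycling cells 26.0 and 20.5 CPM. The wild type peak was not resolved from SP-like cells, whose interval reached 119 CPM. Its log2 ratio of post-selection-like over DP-like cells was 2.29 (1.73 to 2.89) in the mutant and 1.51 (0.77 to 2.27) in the wild type. Per cell this is 0.486 mutant UMIs and 0.301 wild type UMIs in post-selection-like cells, against 0.075 and 0.089 in DP-like cells.

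The 3 feedback inhibitors differed among themselves. Dusp1 was high in post-selection-like cells alone among DP-like, post-selection-like and SP-like cells, at 51.5 CPM (34.5 to 73.9) in the mutant and 23.0 CPM (11.0 to 42.2) in the wild type. DP-like cells had 10.7 and 4.46 CPM, and SP-like cells 11.2 and 4.69 CPM, the wild type values resting on 3 UMIs each. Early-like cells had 17.2 and 19.3 CPM (9 and 3 UMIs, the wild type interval reaching 56.4 CPM) and cycling cells 15.9 and 12.6 CPM, so the wild type peak was not resolved from early-like cells. Its log2 ratio over DP-like cells was 2.27 (1.19 to 3.47) in the mutant and 2.36 (0.41 to 4.86) in the wild type, and over SP-like cells 2.20 (1.25 to 3.20) and 2.29 (0.33 to 4.79).

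Zfp36 varied less than Dusp1 among DP-like, post-selection-like and SP-like cells only. It had 62.1 CPM in mutant and 73.5 CPM in wild type post-selection-like cells. DP-like cells had 46.9 and 59.4 CPM and SP-like cells 41.2 and 53.2 CPM, all with overlapping intervals. Its levels in early-like and cycling cells of both libraries were lower than in those stages. Early-like cells had 11 mutant UMIs (21.1 CPM) and 0 wild type UMIs, where 3 UMIs would be 19.3 CPM. Cycling cells had 15 and 19.5 CPM.

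Nfkbia was present in every stage. It stood at 376 CPM (327 to 430) in mutant and 271 CPM (224 to 324) in wild type post-selection-like cells, 305 and 288 CPM in DP-like cells, 239 and 188 CPM in SP-like cells and 140 and 152 CPM in cycling cells. Early-like cells were lowest, at 84.3 CPM in the mutant and 25.7 CPM (4 UMIs) in the wild type. Post-selection-like over DP-like cells, its log2 ratio was 0.30 (0.04 to 0.56) in the mutant and -0.09 (-0.43 to 0.25) in the wild type; whether these differ was not tested.

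Counted by a fold of at least 1.5 on CPM + 5, among genes with at least 20 CPM on a side, Junb, Ier2 and Dusp1 were higher in post-selection-like than in DP-like cells in both libraries, 3 of 6 genes measured. The background was 12% of all genes in the mutant and 14.6% in the wild type. Jund was lower by that fold in the wild type, 1 of 6 against 22.1% of all genes, and none was lower in the mutant, also against 22.1%. The median log2 ratio of the genes measured was 1.03 in the mutant and 0.71 in the wild type, where the median over all genes was -0.15 and -0.10. Ribosomal protein UMIs, which enter the totals, took a median of 24.4% in mutant and 28.8% in wild type post-selection-like cells and 20.6% and 26.1% in DP-like cells.

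**Figure D2:**
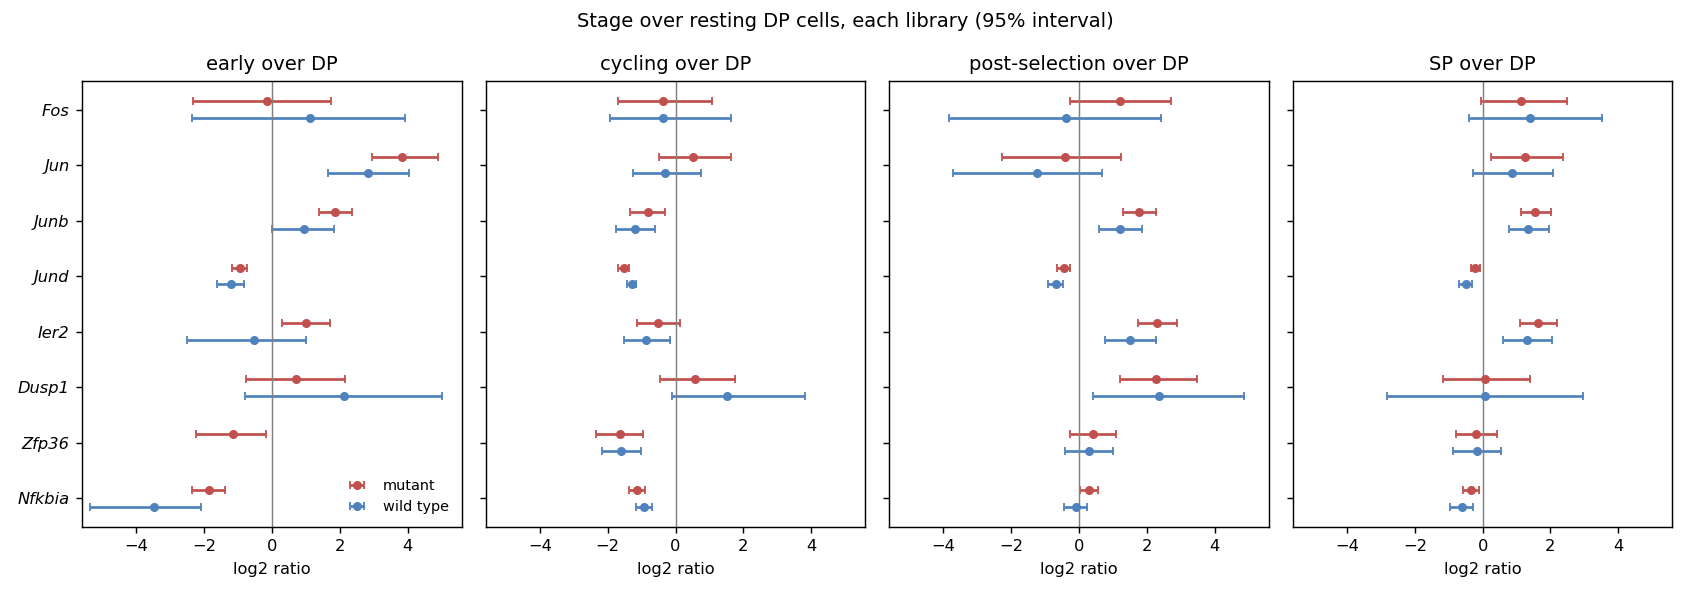
Log2 ratio of each stage over DP-like cells (x axis) for 8 of the genes, Fosb and Atf3 not drawn, mutant above wild type, with exact 95% intervals for counting error. Junb and Ier2 lie to the right of 0 in post-selection-like and SP-like cells of both libraries, and Jund to the left in post-selection-like cells.

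In SP-like cells Jun stood in the place of Dusp1. SP-like over DP-like cells, Jun, Junb and Ier2 passed the fold in each library, 3 of 6 genes measured. The background was 10.8% of all genes in the mutant and 11.8% in the wild type. The wild type interval of that Jun ratio included 0. Downwards none of 6 passed it in the mutant and 1 of 6, Nfkbia, in the wild type, against 43.3% and 40.5%. Early-like over DP-like cells, 3 of 6 genes measured passed the fold upwards in the mutant (background 15.1%) and 2 of 6 in the wild type (17.9%). They were Jun and Junb in both and Ier2 in the mutant. The wild type interval of that Junb ratio included 0. Downwards, 3 of 6 genes passed it in each library, against 27.4% and 39.7% of all genes. Cycling over DP-like cells, none of 5 genes measured passed it upwards in either library (19.7% and 18.3%). Downwards, 4 of 5 passed it in the mutant and 5 of 5 in the wild type (29% and 31.9%). The SP-like over DP-like direction of Nfkbia in the mutant, -0.35, turned to 0.11 when totals were scaled by the median of ratios, where all genes together had a median of -0.48 on the CPM scale.

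Set between the libraries over all cells, 9 of the 10 genes had a mutant level above the wild type level, the exception being Atf3. Fos, Fosb, Dusp1 and Atf3 were under 20 CPM in both libraries. Junb had 115 CPM in mutant and 54.3 CPM in wild type cells, a log2 ratio of 1.09 (0.90 to 1.27). Ier2 had 71.6 and 37.8 CPM (0.92, 0.70 to 1.15), and Jun 34.0 and 18.5 CPM (0.88, 0.55 to 1.21). These 3 of 6 genes measured passed the 1.5-fold mark, against 7.15% of all genes, and none was lower by it, against 2.85%. For Jund, with 538 and 462 CPM, the ratio was 0.22 (0.15 to 0.29), and for Nfkbia, with 218 and 182 CPM, 0.26 (0.15 to 0.38). The median over all genes was 0.09.

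A value over all cells mixes the stages, and the libraries differed in their shares. Cycling cells, where the 8 genes were low, held 36.0% of mutant and 66.0% of wild type UMIs, and SP-like cells held 21.2% and 9.70%. The wild type levels of each stage, weighted by the mutant's shares of UMIs, gave the 8 genes a log2 ratio of 0.49 over the wild type, of the 0.83 seen. The difference in levels within stages gave the other 0.34. For Junb the split was 0.65 from shares and 0.44 from levels, for Ier2 0.45 and 0.47, for Jun 0.64 and 0.24, for Jund 0.21 and 0.01, and for Dusp1 -0.08 and 0.72. With the mutant levels weighted by the wild type's shares instead, the part from levels was 0.32 for the 8 genes, 0.45 for Junb, 0.43 for Ier2, 0.23 for Jun, -0.11 for Jund and 0.59 for Dusp1. These weightings were added after the data had been seen.

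**Figure D3:**
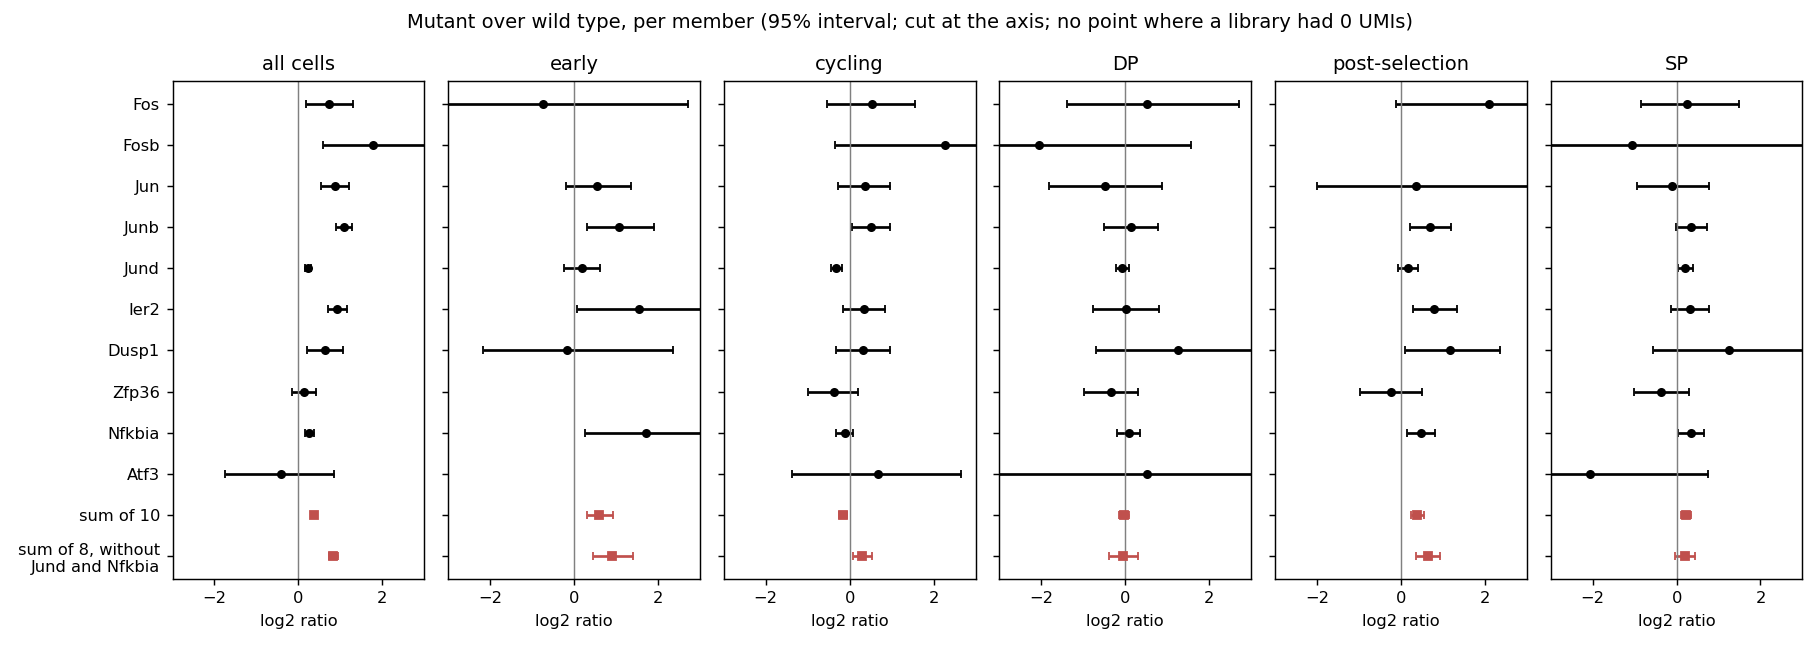
Log2 ratio of mutant over wild type for each gene, over all cells and within each stage, with exact 95% intervals for counting error from 1 library per genotype, clipped at the edge of the axis, and squares for the sums. Junb, Ier2, Dusp1 and Nfkbia lie to the right of 0 in post-selection-like cells, while every interval in DP-like cells includes 0.

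In DP-like cells the interval of every gene's ratio included 0. The 8 genes summed to 177 CPM in the mutant and 183 CPM in the wild type (log2 ratio -0.05, -0.39 to 0.30), and Ier2 stood at 37.3 and 37.1 CPM (0.01, -0.78 to 0.81). Jund had a ratio of -0.08 (-0.23 to 0.08) and Nfkbia 0.08 (-0.19 to 0.35). The sum of all 10 had a ratio of -0.04 (-0.16 to 0.09), but -0.14 (-0.27 to -0.02) with totals scaled by the median of ratios. None of 5 genes measured passed the fold upwards or downwards, against 12.2% and 4.91% of all genes. The intervals of the sparse genes are wide: Dusp1 had 10.7 and 4.46 CPM, a ratio of 1.26 (-0.70 to 3.76).

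In post-selection-like cells the mutant had higher levels of Ier2, Junb, Dusp1 and Nfkbia. Ier2 had 183 CPM in the mutant and 106 CPM in the wild type, a log2 ratio of 0.79 (0.28 to 1.33). Junb had 200.5 and 124 CPM (0.69, 0.21 to 1.19), and Dusp1 51.5 and 23.0 CPM (1.16, 0.09 to 2.37). These 3 of 6 genes measured passed the 1.5-fold mark upwards, against 12.9% of all genes, and none downwards, against 7.71%. Nfkbia had 376 and 271 CPM (0.47, 0.14 to 0.81), a ratio that fell to 0.26 (-0.07 to 0.59) as a mean over cells. Zfp36 had 62.1 and 73.5 CPM (-0.24, -0.98 to 0.50) and Jund 609 and 544 CPM (0.16, -0.08 to 0.41). The sum of the 8 genes had a ratio of 0.64 (0.35 to 0.93).

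Early-like cells also had higher mutant levels, from few wild type cells. Junb had 215 CPM in the mutant and 103 CPM in the wild type (log2 ratio 1.06, 0.30 to 1.92), Ier2 74.7 and 25.7 CPM (1.54, 0.07 to 3.48) and Nfkbia 84.3 and 25.7 CPM (1.71, 0.26 to 3.65). Jun had 169 and 116 CPM (0.54, -0.20 to 1.36). Junb, Ier2, Nfkbia and Zfp36, 4 of 6 genes measured, passed the fold, against a background of 31.4% of all genes, which was the highest among the 5 stages; none passed it downwards, against 11.9%. The ratio of Ier2 was 1.28 (-0.19 to 3.23) without mitochondrial and ribosomal UMIs in the totals. The early-like markers themselves summed to 4047 CPM in the mutant and 2192 CPM in the wild type, and the ribosomal share was 32.4% and 43.5%. The ratio of the 8 genes was 0.91 (0.44 to 1.41), and 0.65 (0.19 to 1.15) without mitochondrial and ribosomal UMIs; the part of the markers was not tested.

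In SP-like and cycling cells the sum of the 8 genes differed less on the CPM scale than in post-selection-like and early-like cells. In SP-like cells the 8 genes had 389 CPM in the mutant and 339 CPM in the wild type (log2 ratio 0.20, -0.03 to 0.43), and 0 of 6 genes measured passed the fold upwards and 0 downwards, against 7.03% and 4.27%. Jund had 717 and 621 CPM there (0.21, 0.04 to 0.38) and Nfkbia 239 and 188 CPM (0.35, 0.04 to 0.66). In cycling cells the 8 genes had 118 and 95.4 CPM (0.30, 0.08 to 0.53), with Junb at 33.1 and 23.2 CPM (0.51, 0.06 to 0.96). Jund had 288 CPM in mutant and 358 CPM in wild type cycling cells, a ratio of -0.32 (-0.45 to -0.18). None of 4 genes measured passed the fold in cycling cells, against 7.57% of all genes upwards and 1.94% downwards.

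For the sum of the 8 genes, the interval of the mutant over wild type ratio lay above 0 in post-selection-like, early-like and cycling cells, and included 0 in DP-like and SP-like cells. For the sum of all 10 it lay above 0 in post-selection-like (0.39, 0.23 to 0.55), early-like (0.60, 0.30 to 0.92) and SP-like cells (0.23, 0.10 to 0.35), and below 0 in cycling cells (-0.15, -0.25 to -0.05). Ratios above 0 were thus found outside the receptor-signalled stage too, and not in every stage. Whether the ratios differ between stages cannot be tested with 1 library per genotype.

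Post-selection-like cells were next split by whether they held a UMI of Cd69, Egr2 or Nr4a1, genes that the T cell receptor induces quickly and of which Egr2 and Nr4a1 are immediate early genes themselves. In the mutant 89 cells had such a UMI and 123 had none, and in the wild type 54 and 99. Among cells with one, the 8 genes stood at 857 CPM (743 to 984) in the mutant and 474 CPM (373 to 595) in the wild type, a log2 ratio of 0.85 (0.47 to 1.26). Among cells without, they stood at 291 CPM (235 to 355) and 263 CPM (206 to 331), a ratio of 0.14 (-0.31 to 0.60). The intervals of these 2 ratios overlap, and their difference was not tested. The split itself rests on genes of the same response, and Nr4a1 differed between the libraries, with 254 CPM in mutant and 71.2 CPM in wild type post-selection-like cells.

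By gene, cells with such a UMI against cells without had 338 and 70.4 CPM of Ier2 in the mutant (log2 ratio 2.26, 1.58 to 3) and 183 and 61.3 CPM in the wild type (1.58, 0.67 to 2.54). Junb had 287 and 138 CPM in the mutant (1.06, 0.50 to 1.64) and 158 and 105 CPM in the wild type (0.60, -0.24 to 1.42). Nfkbia had 574 and 233 CPM in the mutant (1.30, 0.89 to 1.73) and 386 and 205 CPM in the wild type (0.91, 0.36 to 1.46). These 3 genes had higher levels in the cells with a receptor-induced UMI in each library, though the wild type interval of Junb includes 0. Dusp1 had 92.9 and 21.4 CPM in the mutant (2.12, 0.84 to 3.59), and 19.0 and 25.2 CPM in the wild type from 3 and 7 UMIs (-0.41, -2.99 to 1.72). Zfp36 had 97.1 and 36.7 CPM in the mutant (1.40, 0.34 to 2.54), and its wild type levels are drawn in the figure that follows. Jund was flat, with 629 and 594 CPM in the mutant (0.08, -0.23 to 0.40) and 519 and 559 CPM in the wild type (-0.11, -0.51 to 0.29).

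The same split in other stages gave a like difference in the few DP-like cells with such a UMI. The 8 genes stood at 470 CPM in 24 mutant DP-like cells with a UMI and 161 CPM in 443 without (log2 ratio 1.55, 0.85 to 2.19), and at 433 CPM in 12 and 168 CPM in 269 wild type cells (1.36, 0.51 to 2.13). In SP-like cells the difference was smaller, 431 and 376 CPM in the mutant (0.20, -0.10 to 0.48) and 479 and 315 CPM in the wild type (0.61, 0.10 to 1.08). Ier2 kept a difference in SP-like cells, with 162 and 101 CPM in the mutant (0.68, 0.16 to 1.18) and 177 and 77.3 CPM in the wild type (1.20, 0.29 to 2.04).

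**Figure D4:**
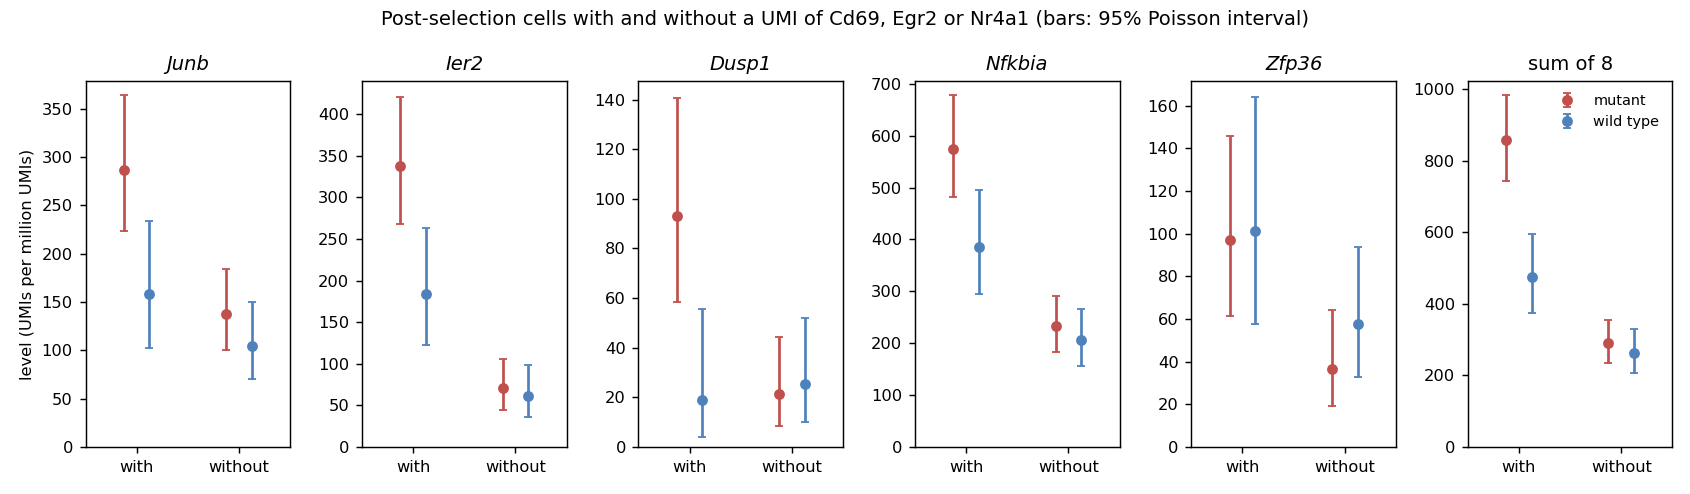
Level (CPM, linear axis from 0) of Junb, Ier2, Dusp1, Nfkbia, Zfp36 and the sum of the 8 genes in post-selection-like cells with and without a UMI of Cd69, Egr2 or Nr4a1, mutant left of wild type, with exact 95% Poisson intervals. In the sum, mutant post-selection-like cells with such a UMI stand at 857 CPM, against 474 CPM in the wild type; without one, the libraries stand at 291 and 263 CPM.

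Depth moved with these levels inside the mutant. Its post-selection-like cells with a receptor-induced UMI had a median of 2125 UMIs and those without 2427, while the wild type had 2641.5 and 2427. Mutant post-selection-like cells at or below their median depth had 683 CPM of the 8 genes and those above it 450 CPM; the wild type had 361 and 327 CPM. With every cell thinned to 1500 UMIs the post-selection-like ratio of the 8 genes, mutant over wild type, was 0.77 (0.35 to 1.20), and with cells above a common lowest total it was 0.55 (0.25 to 0.86).

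Among the 3 post-selection-like clusters, made without the 10 genes, the ratio between the libraries ran from 0.09 to 1.01. In cluster 12, with 51 mutant and 22 wild type cells, the 8 genes stood at 1024 CPM in the mutant and 509 CPM in the wild type (log2 ratio 1.01, 0.46 to 1.59). There Nr4a1, the receptor-induced nuclear receptor Nur77, had 978 and 644 CPM, and Ier2 417 and 135 CPM. In cluster 6 (111 and 88 cells) the 8 genes stood at 388 and 285 CPM (0.44, 0.02 to 0.87), and in cluster 11 (77 and 66 cells) at 365 and 343 CPM (0.09, -0.45 to 0.63). In SP-like cluster 3, with 53 mutant and 20 wild type cells, the wild type was higher, at 345 CPM in the mutant against 601 CPM in the wild type (-0.80, -1.43 to -0.16).

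Markers of other cell types were present in post-selection-like cells. The B cell markers summed to 23.1 CPM in the mutant and 4.59 CPM in the wild type, the macrophage markers to 14.2 and 11.5 CPM, the antigen presenting markers to 51.5 and 48.2 CPM and the innate-like markers to 243 and 161 CPM, with granulocyte markers at 0 in both. Cells placed in the B cell group carried 601 CPM of the 8 genes in the mutant (37 cells) and 1027 CPM in the wild type (6 cells). With cells holding more than 1 UMI of other cell types' markers left out, the post-selection-like ratio of the 8 genes was 0.65 (0.34 to 0.96).

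To compare shares of cells at 1 depth, every cell was thinned to 1500 UMIs, which left out 97 mutant cells and no wild type cell. At least 1 UMI of the 8 genes was then seen in 44.2% (37.2 to 51.4) of 199 mutant and 30.1% (22.9 to 38.0) of 153 wild type post-selection-like cells, against 59.0% and 50.3% unthinned. The lowest stage, cycling, had 17.3% and 11.6% (47.5% and 44.1% unthinned), and DP-like cells had 20.5% and 23.1% (27.2% and 31.0% unthinned). Ier2 was seen in 21.1% of mutant and 11.1% of wild type post-selection-like cells, 42 and 17 cells, against 2.17% and 2.18% in cycling cells.

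Cells with several of the 8 genes were uncommon at this depth. Among thinned post-selection-like cells, 11.1% of mutant and 3.27% of wild type cells had UMIs of exactly 2 of the 8, and 2.01% and 1.31% of 3 or more. The highest number in 1 cell was 5 in the mutant and 3 in the wild type. Junb and Ier2 were seen together in 12 of 199 mutant cells, where the product of their shares gives 8.65, and in 3 of 153 wild type cells, where it gives 1.89. These counts are too small to read more from.

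**Figure D5:**
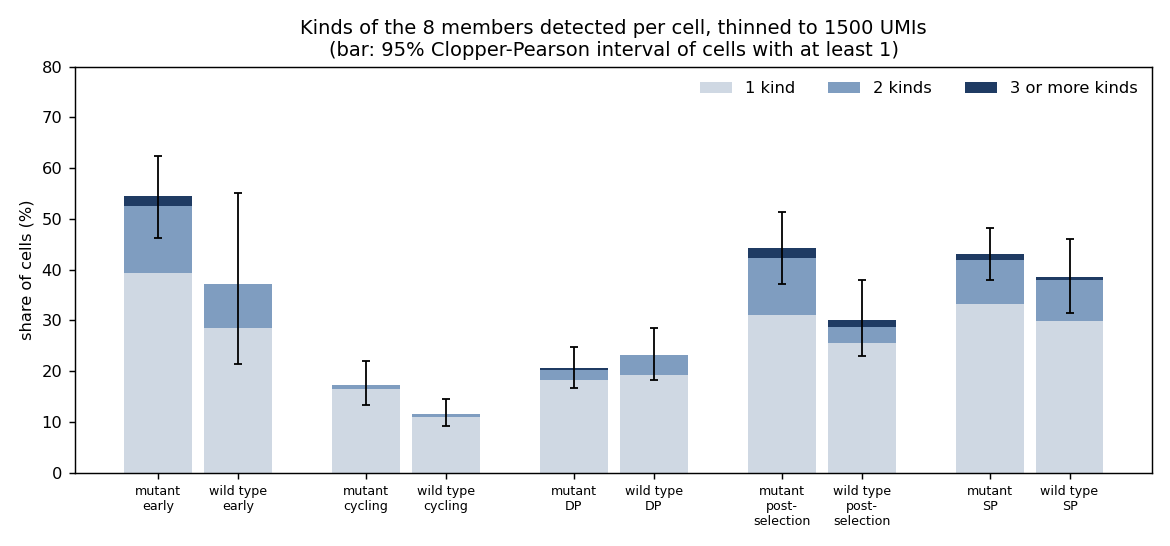
Share of thinned cells (percent, 1500 UMIs each) with UMIs of 1, 2 or at least 3 of the 8 genes, stacked, by stage, mutant left of wild type, with the exact 95% interval of the share with at least 1. The post-selection-like bar reaches 44.2% in the mutant and 30.1% in the wild type, and cells with none of the 8 make up the remaining 55.8% and 69.9%.

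Other immediate early genes were listed for comparison: 28 genes, among them Nr4a1, Egr1 and Egr2, which the list of T cell receptor response genes also holds. In post-selection-like cells 17 could be measured, 16 had a higher level in the mutant, and 8 passed the 1.5-fold mark upwards and none downwards, against 12.9% and 7.71% of all genes, with a median log2 ratio of 0.43 against 0.08 over all genes. Nr4a1 had 254 CPM in the mutant and 71.2 CPM in the wild type (1.83, 1.27 to 2.44). Gadd45b, a stress sensor of the growth arrest family, had 65.7 and 11.5 CPM (2.52). Egr1, an early target of MAP kinase signalling, had 142 and 138 CPM (0.04), and Klf6 26.6 and 36.7 CPM (-0.46, -1.58 to 0.65).

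The next 3 lists are read against the same background in post-selection-like cells. There 12.9% of all genes passed the fold upwards and 7.71% downwards, and the median over all genes was 0.08. The NF-kB list of 14 genes had 11 measured, of which 10 were higher in the mutant, 4 by the fold and 1 lower by it. Their median was 0.32. Nfkbid, an IkB family member, had 131 CPM in the mutant and 64.3 CPM in the wild type (1.03), and Tnfaip3, the deubiquitinase A20 that ends NF-kB signalling, 69.2 and 23.0 CPM (1.59). Birc3, an inhibitor of apoptosis, had a ratio of -0.79 (-2.21 to 0.58). Of 16 receptor response genes, 14 were measured, 12 were higher and 4 passed the fold upwards, with a median of 0.27; Tnfrsf9, the receptor 4-1BB, had 99.4 and 23.0 CPM (2.11). In the list of 10 MAP kinase feedback genes 7 were measured, 3 passed the fold upwards and 1 downwards, with a median of -0.01; Dusp10 had 142 and 41.3 CPM (1.78).

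Heat shock genes, which also respond to handling, went in both directions. In post-selection-like cells 8 of 12 were measured, 4 were higher in the mutant and the median was -0.01. The fold was passed by 1 in each direction, against 12.9% of all genes upwards and 7.71% downwards. Over all cells 2 of 8 were higher, with a median of -0.16. None passed the fold upwards and 1 downwards, against 7.15% and 2.85% of all genes. Hsp90aa1 had 459 CPM in the mutant and 647 CPM in the wild type (-0.50), and Dnaja1 was among the highest (0.26). In DP-like cells Hspa8, the constitutive HSC70, had 532 and 1002 CPM (-0.91, -1.08 to -0.74). In early-like cells 10 were measured and 6 were higher in the mutant. Hspa1a and Dnajb1 passed the fold upwards and Hspe1 downwards, against 31.4% and 11.9% of all genes. Early-like over DP-like cells, Hspa1a, Hspa1b, Hsp90ab1 and Hspe1 passed the fold upwards in both libraries, 4 of 10 measured, against 15.1% and 17.9%. Downwards Dnajb1 passed it in both and Dnajb4 in the wild type, 1 and 2 of 10, against 27.4% and 39.7%.

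The same lists were read for post-selection-like over DP-like cells, where 12% of all genes in the mutant and 14.6% in the wild type passed the fold upwards and 22.1% in each passed it downwards. Of the NF-kB genes 9 of 10 measured were higher in the mutant library and 10 of 11 in the wild type, 6 by the fold in each and none lower by it. The receptor response genes were higher in 14 of 14 and 13 of 14, but the list holds Itm2a, Cd5 and Tox, which set the stage. Of the other immediate early genes 10 of 18 were higher in the mutant, 9 by the fold and 5 lower by it, and 6 of 14 in the wild type, 5 by the fold and 5 lower; their median was 0.50 in the mutant and -0.22 in the wild type. In the mutant, Gadd45b had a log2 ratio of 4.94 (2.99 to 8.04) and Nr4a1 of 4.57, while Socs3, a cytokine feedback gene, had -3.23 and Tsc22d3, a glucocorticoid target, -1.60. Heat shock genes passed the fold upwards in 2 of 8 in the mutant and 1 of 8 in the wild type, and downwards in 1 of 8 in each.

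Over the 10 stage-by-library sums, the genes of 2854 ranked whose log2(CPM + 5) ran most like the sum of the 8 were Zmynd8 (Pearson r = 0.963), Clec2d (0.945) and Bcl2, which keeps lymphocytes alive (0.925), with Mycbp2, 2310001H17Rik and Ccnd2 next. Those most like the sum of all 10 were Btg1, which restrains proliferation (0.979), Tmem123 (0.971) and Fam53b (0.969), with Mkrn1, Ube2h and Trim12a next. The points share libraries and totals, so these are descriptions.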

How the data were processed

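UMI counts of each gene in each cell were deposited by the authors without normalization, 1 table per library; they were made with Cell Ranger on mm10, per the submitters' processing notes, with versions and the lowest total accepted for a barcode not given in the sources used here. The mutant table held 1737 barcodes with 6364506 UMIs (lowest total 1416) and that of the wild type 1346 barcodes with 6638880 UMIs (lowest total 1781). Cells with under 400 genes or over 10% mitochondrial UMIs were left out, 6 mutant and 5 wild type cells, and so were 4 cells of each library that Scrublet called doublets; the caller marked under 0.5% of cells, and whether it worked at this size was not tested.

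Stages were set by summed marker UMIs: 3 or more for DP-like, post-selection-like and SP-like cells, 4 for early-like and 5 for cycling cells, the last 2 also needing 10 per 10000 UMIs; some of the markers summed are not reported here. UMIs were summed per library and stage and divided by the total (CPM). Intervals are exact Poisson (levels), exact conditional (ratios) and Clopper-Pearson (shares), all 95%. No test was made, since each genotype had 1 library; the ratio and interval calculation was tested on simulated data. Clusters came from Leiden clustering (2000 variable genes, 30 components, 15 neighbours, resolution 1) without the 10 genes. Tools were Python 3.11.15, numpy 2.4.6, scipy 1.17.1, pandas 2.3.3, scanpy 1.11.5, anndata 0.12.19 and matplotlib 3.10.9.

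All 10 genes are named. From each related list the 2 highest and 2 lowest measured genes of a comparison could be named, and the 6 most alike in pattern; Nr4a1, Cd69, Egr1, Gadd45b and genes given beyond that rule were chosen with their values known. The genes, lists and stages were chosen with earlier results of these data known. The alternatives tried changed the stage gates, cell filters, depth, scaling, single cells and low values.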

Additional observations from a re-analysis of the deposited data

Results flagged for a closer look

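Between stages, 2 of the genes and the sum of all 10 had mutant over wild type log2 ratios in opposite directions, each with an interval clear of 0; each stage is 1 library per genotype, and the difference was not tested. Jund, the AP-1 subunit of resting cells, stood at -0.32 in cycling cells, at 0.21 in SP-like cells and at 0.66 in the 25 mutant and 14 wild type innate-like cells. Nfkbia, the inhibitor of NF-kB, stood at 1.71 in early-like, 0.47 in post-selection-like and 0.35 in SP-like cells, but at -1.02 in innate-like cells, where it had 255 CPM in the mutant and 516 CPM in the wild type. The summed 10 genes stood at 0.60 in early-like, 0.39 in post-selection-like and 0.23 in SP-like cells, but at -0.15 in cycling cells, where Jund held most of their UMIs. Most cycling cells of both libraries lay in shared clusters, while cluster 4 held 95 mutant and 3 wild type cells and cluster 16 held 12 and 156.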

How the results depend on the processing

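Over 24 results and 16 alternatives, 342 of 356 values stayed within the interval of the reported value, those near 0 with either sign. For sums of genes this was the counting interval. For medians over genes it was the median of the genes' own interval ends, which is not a counting interval of the median. Staying within it says little about those medians. With stages gated on thinned cells the sum of 10 genes, post-selection-like over DP-like cells in the wild type, changed sign to 0.052 (reported -0.22), and the mutant over wild type ratios moved to 0.093 in DP-like and 0.39 in SP-like cells for the 10 genes and to 0.47 in SP-like cells for the 8. Over all cells the ratio of the 10 genes (0.37) was 0.31 above a common lowest total, 0.28 as a mean over cells, 0.30 with the median of ratios, 0.32 without mitochondrial and ribosomal UMIs and 0.28 with thinned cells; that of the 8 genes was 0.70 as a mean over cells. In cycling cells it was -0.32 with the median of ratios and -0.30 without mitochondrial and ribosomal UMIs for the 10 genes, and 0.65 with thinned cells for the 8. Without a minimum CPM the median post-selection-like over DP-like ratio was 0.43 in the mutant. In DP-like cells the 10 genes had intervals below 0 under 3 of 15 alternatives (lowest -0.15). In post-selection-like cells the ratio of the 8 genes ranged from 0.54 to 0.77. Of 58 gene ratios with intervals clear of 0, 45 kept this under 4 scalings and single-cell settings, and 2 changed sign, Jund and Nfkbia in mutant SP-like over DP-like cells. No paired analysis was possible because each genotype had 1 library. Depth limits Fos, Fosb and Atf3, and wild type early-like cells number 35.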

Other observations

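Within mutant cycling cells the 8 genes were higher in cells with more S marker UMIs. Mutant cells with more S than G2M marker UMIs, or as many, had 157 CPM (130 to 188), and those with more G2M UMIs 98.3 CPM (83.2 to 115); the wild type had 94.6 and 95.8 CPM. In cycling cluster 8 the 8 genes stood at 139 CPM in 112 mutant and 88.6 CPM in 212 wild type cells (log2 ratio 0.65, 0.26 to 1.04).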
